A study of Mus musculus with 2 samples.

Results

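Plasma cells, the antibody-secreting end stage of the B cell lineage, were a small population in both kidney libraries: 113 of the 15922 barcodes kept in the FA library and 56 of the 6295 kept in the control library, 169 of 22217 in all. They were chosen from measured values. A barcode with at least 500 UMIs (counted RNA molecules), at least 200 genes and at most 50% mitochondrial UMIs was taken as a plasma cell at 10 or more UMIs of Jchain, 5 or more UMIs of Xbp1 and Mzb1 together, no UMI of Cd3d, Cd3e or Cd3g and fewer than 5 UMIs of C1qa, C1qb and C1qc. The levels of these genes are therefore no finding. Kidney cells of mice labelled wild type were captured in droplets and sequenced, in 1 library with FA-induced nephropathy, an injury made with folic acid, and 1 library of control kidney. The sources used here do not give the number of animals, the dose of folic acid or the time after it. With 1 library per group there was no replicate check and no test was run, so every difference below is one between these libraries and intervals are 95% intervals of counting error only. FA plasma cells held 806 UMIs of Xist, the RNA of the inactive X, and 0 of the Y-linked gene Ddx3y, while control plasma cells held 1 and 32, so treatment and sex cannot be told apart.

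A plasma cell makes mostly one product, an antibody of a single heavy chain class joined to kappa or lambda light chains. The chains enter the endoplasmic reticulum, are folded there by chaperones and disulphide isomerases, and leave in vesicles, while chains that do not fold are sent back for degradation. IgA plasma cells also make the J chain, which links IgA into dimers for transport across epithelia, and plasma cells as a whole depend on survival signals such as those received through BCMA, the product of Tnfrsf17. Most mature plasma cells do not divide, whereas their immediate precursors, the plasmablasts, do.

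Markers that the rule did not use were present in most of these cells. Sdc1 (syndecan-1, the classical surface marker) had UMIs in 71 of 113 FA and 48 of 56 control plasma cells, against 16 of 1850 FA T cells and 6 of 557 control T cells. Of the 3 rule genes, Jchain set the limits of the class most sharply. Within the class the lowest Jchain counts were 26, 35 and 50 UMIs in FA and 62, 72 and 183 in control, and among barcodes that met the other limits but not this one the highest count was 9 in FA and 0 in control. Mzb1 was scarce, with 39 UMIs in 28 FA cells and 12 UMIs in 10 control cells, so the limit on Xbp1 and Mzb1 was in effect one on Xbp1. The limit on Cd3 genes removed 14 FA and 8 control barcodes, and that on C1q genes 0 and 5. The 15 genes highest in plasma cells over all other barcodes in both libraries included Ccr10, Derl3, Tnfrsf17, Pou2af1, Txndc5, Eaf2 and Tent5c, all known from plasma cells. Prg2, known as an eosinophil granule protein, and Vpreb3, known from B cell precursors, were among them too.

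Markers of other cells were present at low levels. The T cell list held 246 UMIs in FA plasma cells, of which 235 were Cd28, a receptor that plasma cells also carry, and 128 in control, of which 105 were Cd28; Cd8a was at 0 in both. The macrophage and monocyte list held 1414 UMIs in FA, of which 1369 were Ly6c2, with Csf1r and Lyz2 at 0. It held 239 in control, of which 186 were Ly6c2, and there Csf1r and Lyz2 had UMIs. Of its 11 markers, 5 had UMIs in FA and 8 in control. Proximal tubule markers summed to 1385 CPM (UMIs scaled to a total of 1000000) in FA, in 40 cells, and to 4447 CPM in control, in 20 cells. A cell with 2 or more UMIs of tubule, neutrophil, NK cell, endothelial, podocyte, stromal or T cell markers beyond the level in B cells of its library was counted as a possible doublet, which held for 46 FA and 40 control plasma cells. The T cell list in this count includes Cd28, so cells are also counted for a gene that plasma cells carry. No barcode of a plasma cell was shared between the libraries, which shared 54 barcodes in all. FA plasma cells had a median of 12753 UMIs and control plasma cells 21308.5, against 3116.5 and 3478 in T cells and 2097.5 and 2524 in B cells.

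Plasma cells formed 0.710% of kept FA barcodes (exact interval 0.585 to 0.853) and 0.890% of kept control barcodes (0.673 to 1.15). These intervals overlap. Of the barcodes with a UMI of Ptprc, which encodes the leukocyte antigen CD45, they were 71 of 7798 (0.910%, 0.712 to 1.15) in FA and 36 of 1891 (1.90%, 1.34 to 2.63) in control, and here the intervals are apart. Of plasma and B cells together they were 25.4% in FA and 22.95% in control. A smaller share among leukocytes cannot be told apart from more leukocytes of other kinds. Without possible doublets the shares were 0.422% in FA and 0.256% in control, the other order.

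Antibody transcripts took a smaller part of the RNA of FA plasma cells. In the median cell, immunoglobulin chains made up 45.2% of UMIs in FA (quartiles 29.9 and 57.8, lowest 6.12, highest 72.2) and 63.2% in control (quartiles 49.0 and 70.5, lowest 10.6, highest 83.9). The ranges overlap widely, and the lower quartile of control lies above the FA median. More than 50% of UMIs were immunoglobulin in 48 of 113 FA cells (42.5%, 33.2 to 52.1) and 40 of 56 control cells (71.4%, 57.8 to 82.7). The difference lay in the immunoglobulin UMIs themselves. The median cell held 5310 of them in FA and 12040.5 in control, while UMIs that were neither immunoglobulin, Jchain nor mitochondrial stood at 5627 in FA and 6299 in control. Igkc, the kappa light chain constant gene, gave 29.0% of the UMIs of FA plasma cells and 42.7% of those of control plasma cells, and Igha, the IgA heavy chain, gave 8.37% and 12.7%. Jchain, a gene of the rule, made up 2.70% of UMIs in the median FA cell and 6.32% in the median control cell. The spread within each library was larger than the gap between the medians. The direction was not particular to plasma cells. In B cells the median immunoglobulin share was 1.14% in FA and 1.76% in control, and the median cell held 24 and 48 immunoglobulin UMIs.

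**Figure D1:**
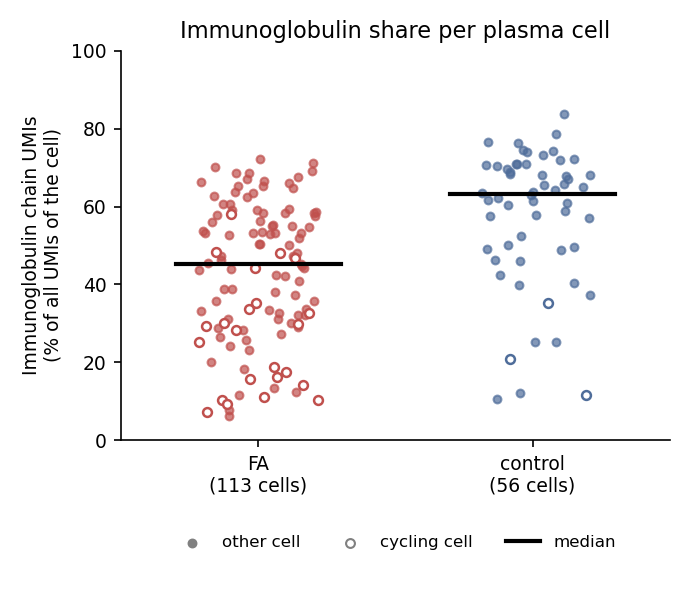
Immunoglobulin share of UMIs in each plasma cell, in percent, with 113 FA cells left and 56 control cells right; open circles are cycling cells and the black line is the median. The FA median is 45.2% and the control median 63.2%, and the medians of the cycling cells, 28.3% in FA and 20.9% in control, lie below them.

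IgA was the dominant heavy chain class of the chosen plasma cells in both libraries. The rule asks for Jchain, and IgA cells held more of it than IgG cells. Their medians were 334.5 Jchain UMIs in FA and 1523 in control, against 267 and 328. Cells poor in Jchain are not counted, so the class shares hold for the chosen cells only. A cell was given the heavy chain that held 80% or more of its heavy chain constant UMIs, at 20 or more such UMIs. Igha was that gene in 98 of 113 FA cells (86.7%, exact interval 79.1 to 92.4) and 50 of 56 control cells (89.3%, 78.1 to 96.0). IgG followed with 13 FA cells (11.5%) and 6 control cells (10.7%), so the intervals of both classes overlap between the libraries. The matrix names no Ighg3 and no Ighe, so cells led by these genes could not be called. Among the IgG cells, Ighg2b led in 8 FA and 3 control cells, Ighg2c in 5 FA and 2 control cells, and Ighg1 in 0 FA cells and 1 control cell. Ighg2b and Ighg2c are alike in sequence, so reads could be split between them. IgM, the class made before switching, led in 1 FA and 0 control cells, and 1 FA cell was mixed. The calls were sharp. The leading gene held a median of 99.7% of a cell's heavy chain UMIs in FA and 99.99% in control. Light chains were kappa in 107 FA and 54 control cells and lambda in 6 FA cells (5.31%) and 2 control cells (3.57%). For Igha, the free-RNA level read from FA T cells was 0.00828% of UMIs and that from control T cells 0.0817%, of which a single control barcode gave most.

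**Figure D2:**
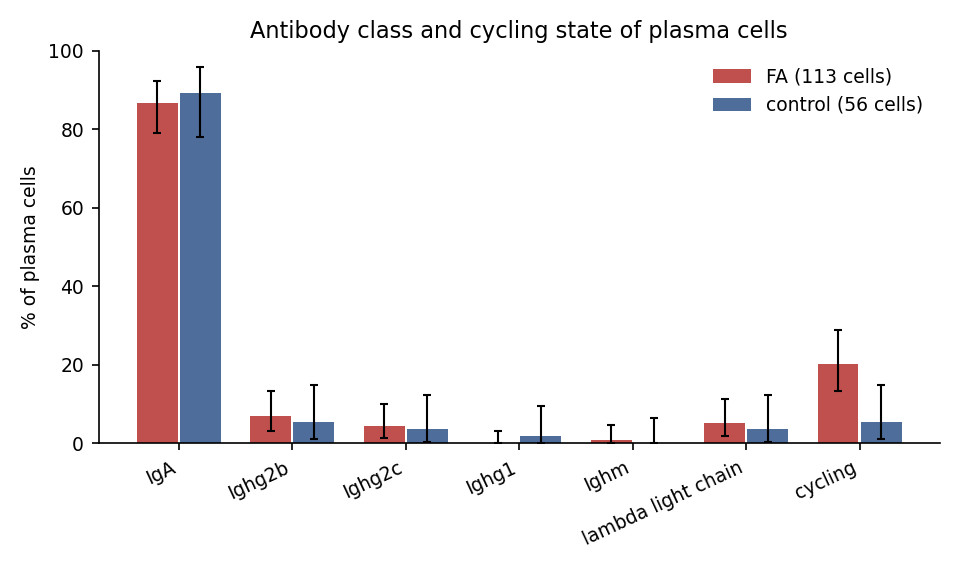
Heavy and light chain classes of plasma cells, as percent of the cells of a library, FA left of control in each class; bars are exact 95% intervals of counting error. IgA holds 86.7% of FA and 89.3% of control cells, and every class's intervals overlap.

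Variable gene use was spread over many genes. The matrix names 51 variable genes, 21 of them heavy chain genes, so many cells could be given none. A leading heavy chain variable gene, with at least 5 UMIs and 50% of that family's UMIs, was called in 69 FA cells over 20 genes and in 12 control cells over 5 genes. A light chain one was called in 78 FA and 20 control cells, with kappa cells led by a lambda variable gene given no call. Both were called in 47 FA cells, which formed 36 pairs of genes, and in 3 control cells. Of the 47 FA cells, 21 had a pair that another cell also had. The largest group, 3 FA cells, shared Ighv8-12 with Igkv6-32. No sequence of the junctions is in the matrix, so shared genes do not show shared clones. The cells left without a light chain call in this way, led by an Iglv gene though their constant light chain was kappa, were 24 in FA and 32 in control.

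Cycling plasma cells were more frequent in the FA library. A cell was counted as cycling at 5 or more UMIs over 12 mitotic genes, a limit chosen after values were seen. It held for 23 of 113 FA plasma cells (20.4%, 13.4 to 29.0) and 3 of 56 control plasma cells (5.36%, 1.12 to 14.9). These intervals overlap at their ends. The same count held for 80 of 1850 FA T cells (4.32%) and 7 of 557 control T cells (1.26%), and for 4 of 332 FA and 1 of 188 control B cells. The limit is on raw UMIs, and plasma cells held more UMIs than T or B cells, so depth enters these shares. Cells were also thinned to 1000 UMIs that are neither immunoglobulin, Jchain nor mitochondrial. A UMI of the 12 genes was then kept in 26.8% of FA plasma cells and 12.3% of FA T cells. In control plasma cells and T cells it was kept in 8.93% and 5.42%. In FA, both classes held cycling cells, 20 of 98 IgA and 3 of 13 IgG cells. Cycling cells had a smaller share of antibody transcripts. Their median immunoglobulin share was 28.3% in FA and 20.9% in the 3 control cells, while the other plasma cells had medians of 50.3% in FA and 63.8% in control. Total UMIs differed in no common direction: cycling cells had a median of 18454 in FA, where the others had 12463, and of 17435 in control, where the others had 21512. Without possible doublets the share was 20.9% in FA and 0 of 16 in control.

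Most mitotic genes were higher in FA. In summed counts over the plasma cells of each library, scaled to CPM of the UMIs that are neither immunoglobulin, Jchain nor mitochondrial, Mki67, the proliferation marker Ki-67, stood at 422 CPM in FA (358 UMIs in 45 cells) and 122 CPM in control (47 UMIs in 7 cells). The FA over control ratio was 3.45 (2.54 to 4.79), and 44.7% of the control UMIs came from 1 cell. A gene was counted as higher or lower at a ratio past 1.5 or its inverse, with 20 or more UMIs over both libraries. Of the 24 cell cycle genes on the list, 20 were higher in FA and 0 lower, where 18.3% of all 6465 genes measured in plasma cells were higher and 22.4% lower. The list's median log2 ratio was 1.76, beside -0.05 over all genes. Top2a, the topoisomerase that untangles replicated DNA, had 249 UMIs in FA and 19 in control, a ratio of 5.94 (3.72 to 10.03). Cdk1, the mitotic kinase, had 65 and 0 UMIs, at least 9.82-fold higher in FA with 0 set to a floor of 3 counts. Ccnb2, a mitotic cyclin, had 36 and 17 UMIs, a ratio of 0.960. In T cells 15 of the 24 genes were higher and 0 lower, with 11.6% of T cell genes higher and 24.5% lower. In B cells 3 of 17 were higher and 4 lower, against a background of 14.3% higher and 20.2% lower. Without the cycling cells, 5 of 9 measured genes were still higher in FA plasma cells, with a median of 0.66.

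The scale matters for every comparison of genes that follows. On the scale above, 1183 genes were higher in FA plasma cells and 1446 lower, whereas on the scale of all UMIs, immunoglobulin included, 3907 were higher and 329 lower. That change of scale moved the median over all genes to a log2 ratio of 0.76, so a gene near 0 here lies near that value there. All list medians below are to be read against -0.05, the median of all genes on the main scale. Counts of plasma cell genes higher or lower are to be read against the 18.3% and 22.4% of all genes.

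Chaperones of the endoplasmic reticulum stood above the other parts of the secretory pathway in FA plasma cells. Of 23 measured folding genes, 7 were higher in FA and 0 lower, beside 18.3% and 22.4% of all genes. Their median log2 ratio was 0.48. Barcodes other than plasma cells had 9 of 22 higher and 1 lower, also with a median of 0.48. Of all genes in those barcodes 15.3% were higher and 32.3% lower, with a median of -0.23. In B cells 5 of 21 were higher and 2 lower, with a median of 0.41, and in T cells 1 of 21 higher and 2 lower, with a median of 0.09. The highest ratio belonged to Fkbp11, a peptidyl-prolyl isomerase of secretory cells, at 996 CPM in FA and 357 in control (844 and 137 UMIs, ratio 2.79, 2.33 to 3.37). Fkbp11 went the other way in B cells, with a ratio of 0.119, and in T cells, with 0.0449, so its level elsewhere in the libraries also differs strongly. Hsp90b1, the chaperone GRP94, was among the most abundant of these transcripts. It stood at 11716 CPM in FA and 7441 in control, a ratio of 1.57 (1.51 to 1.64), and per cell at medians of 9237 and 5140 CPM. Hspa5, the chaperone BiP that binds unassembled heavy chains, stood at 4910 CPM in FA and 3215 in control, a ratio of 1.53 (1.43 to 1.63). Hyou1, a BiP exchange factor, had a ratio of 2.24, Creld2 1.68, the disulphide isomerase Pdia6 1.65 and the cyclophilin Ppib 1.51. Not all members were on the higher side. Txndc5, a disulphide isomerase among the genes highest over the rest, stood at 2728 CPM in FA and 3554 in control, a ratio of 0.768, and Dnajb9, a BiP co-chaperone, had a ratio of 0.722. Without possible doublets the list's median was 0.31.

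Some promoters of folding genes carry a known sequence. The endoplasmic reticulum stress response element is known as a binding site of ATF6 with NF-Y. The sequences below are the 250 bases before the start of Hspa5 and Hsp90b1, the folding genes with the highest UMI counts, on GRCm38.p6, from RefSeq, with the element in capitals where it matched on either strand. They are chr2:34771840-34772089 on the forward strand and chr10:86705445-86705694 on the reverse strand, and both lie upstream of the first exon.
Hspa5: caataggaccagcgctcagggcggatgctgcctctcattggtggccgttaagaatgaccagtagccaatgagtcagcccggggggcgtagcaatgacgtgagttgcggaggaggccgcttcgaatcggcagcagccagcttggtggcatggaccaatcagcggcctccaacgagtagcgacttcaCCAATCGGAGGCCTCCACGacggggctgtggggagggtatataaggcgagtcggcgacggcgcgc
Hsp90b1: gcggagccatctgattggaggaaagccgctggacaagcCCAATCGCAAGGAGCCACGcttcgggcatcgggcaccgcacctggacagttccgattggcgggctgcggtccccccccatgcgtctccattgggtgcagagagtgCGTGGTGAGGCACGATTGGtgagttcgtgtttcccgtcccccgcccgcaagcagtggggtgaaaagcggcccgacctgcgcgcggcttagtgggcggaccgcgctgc
Hspa5 has 1 match, which begins 65 bases before the start, and Hsp90b1 has 2, one on each strand. Among the folding genes that have a RefSeq promoter, 8 of 20 held the element (Hspa5, Hsp90b1, Pdia6, Calr, Canx, Dnajc3, Creld2 and Ero1b), against 37 of 27025 genes overall (0.137%). It was found in 0 of 15 genes of entry into the reticulum and in 2 of 14 genes of degradation, Derl3 and Syvn1. These counts of genes also cover the 50 bases after the start. Holders of the element did not move as one in FA plasma cells. Hspa5, Hsp90b1, Pdia6 and Creld2 were past 1.5, Calr and Canx were at 1.40 and 1.41, and Dnajc3 and Ero1b at 0.816 and 0.955. A match is a run of letters and does not show that a factor binds there.

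The steps before and after folding had few genes higher in FA. Of 20 genes of entry into the reticulum, such as the translocon and the signal peptidase, 1 was higher in FA plasma cells and 0 lower, with a median of -0.01. Of 20 vesicle transport genes 1 was higher and 0 lower, with a median of 0.18. Of 15 degradation genes 0 were higher and 4 lower, with a median of -0.18, and the share lower is near the 22.4% of all genes. Edem2, which directs misfolded glycoproteins to degradation, stood at 582 CPM in FA and 1169 in control (493 and 449 UMIs, ratio 0.498), Edem1 at 827 and 1351 (0.612), and Herpud1, a scaffold of the degradation complex, at 985 and 1617 (0.609). Of 15 N-glycosylation genes, 1 was higher, the oligosaccharyltransferase subunit Ostc with a ratio of 1.77. Another 3 were lower, a share near the 22.4% of all genes. These were Man1a at 0.491, St6gal1, the sialyltransferase that caps antibody glycans, at 0.539, and Ost4 at 0.550. Among 10 measured genes of the stress response, 2 were higher and 3 lower. The sensor Eif2ak3 (PERK) had a ratio of 1.66 and the sensor Ern1 (IRE1) 0.389, from 18 and 21 UMIs, while Atf4 and Ddit3 stood at 0.962 and 1.05.

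**Figure D3:**
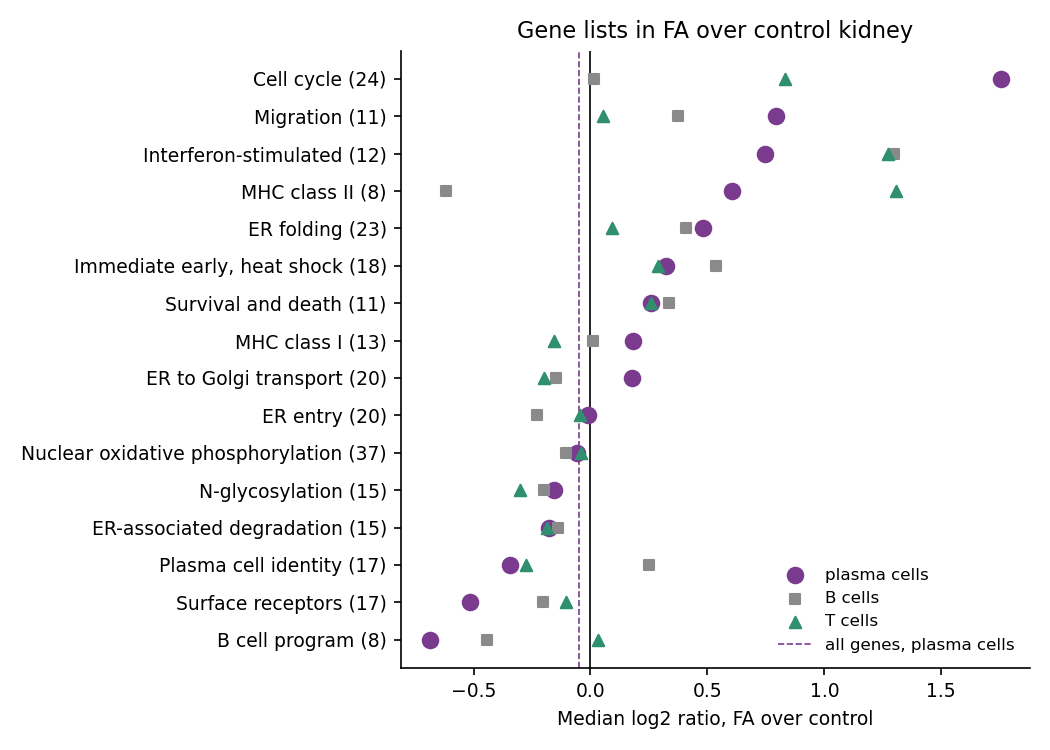
Median log2 ratio, FA over control, of selected gene lists in plasma cells, B cells and T cells, with the dashed line at the median of all genes of plasma cells. Among the lists drawn, in plasma cells the cell cycle list lies highest at 1.76 and the B cell program lowest at -0.69. The folding list lies at 0.48, and the mitochondrially encoded list is not drawn.

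Surface genes of plasma cells had lower ratios than most factors that specify the cell. Of 17 measured identity genes, 2 were higher, Fkbp11 and Creld2, which are also folding genes, and 7 lower, with a median of -0.34 that becomes 0.46 on the scale of all UMIs. Sdc1 stood at 173 CPM in FA and 521 in control (147 and 200 UMIs, ratio 0.333, 0.267 to 0.414). Tnfrsf17, which encodes BCMA, stood at 278 and 700 CPM (236 and 269 UMIs, ratio 0.398), and Slamf7, a surface receptor, at 371 and 591 (0.627). The transcription factors were closer to even. Irf4 stood at 288 CPM in FA and 279 in control, a ratio of 1.03 (0.820 to 1.31), Prdm1, which encodes Blimp-1, at 219 and 279 (0.788, 0.618 to 1.01), and Pou2af1, the B cell coactivator OBF-1, at 591 and 466 (1.27). Xbp1, a gene of the rule, stood at 3682 and 4314 CPM. Zbtb20, a factor needed for long-lived plasma cells, was at 85.0 CPM in FA and 411 in control (0.207, 0.154 to 0.275), although its ratio was also low in B cells at 0.491 and in T cells at 0.380. Ikzf3, the factor Aiolos, had a ratio of 0.631.

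Residual B cell transcripts were also lower in FA plasma cells, and the same list had a median below 0 in B cells. In B cells 0 of its 18 genes were higher and 6 lower, with a median of -0.44. Of all B cell genes 14.3% were higher and 20.2% lower, with a median of -0.10. In plasma cells 5 of 8 measured genes of the B cell program were lower and 1 higher. Their median was -0.69, which turns to 0.12 on the scale of all UMIs. Cd79a, the signalling chain of the B cell receptor, stood at 663 CPM in FA and 2653 in control (562 and 1019 UMIs, interval of the ratio 0.225 to 0.277), and at per-cell medians of 707 and 2502 CPM. It stayed lower on the scale of all UMIs, with a log2 ratio of -1.19. Its partner Cd79b had a ratio of 0.810. Ebf1, a B lineage factor, had 27 UMIs in 18 FA cells and 79 in 33 control cells (0.155). Vpreb3 had UMIs in 29 of 113 FA and 48 of 56 control plasma cells, at 93.2 and 583 CPM (0.160, 0.122 to 0.207), against 30.1% of FA and 39.4% of control B cells and 0 of 1850 FA and 1 of 557 control T cells. Cd74, the invariant chain of MHC class II, stood at 4228 CPM in FA and 8232 in control (0.514). The MHC class II list as a whole gave no steady direction. Its 8 measured members split into 4 higher and 2 lower, and H2-Aa had 565 UMIs in 12 FA cells and 144 in 12 control cells, of which the highest cell alone held 28.0% and 56.2%. The list's median of 0.60 became -0.28 with each cell weighed the same and -1.35 without possible doublets.

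**Figure D4:**
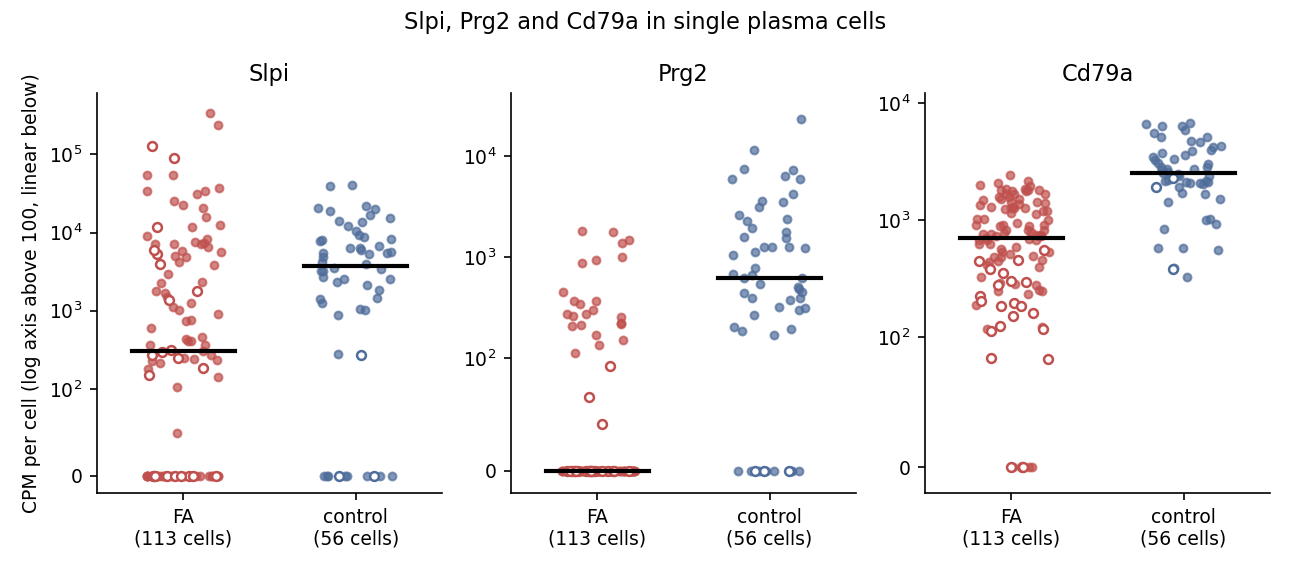
CPM per plasma cell for single genes, FA left of control, on an axis that is linear below 100 and logarithmic above; open circles are cycling cells and black lines are medians. Slpi spreads from 0 to its highest values in FA with a median of 303 CPM, against 3777 CPM in control.

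Receptors for survival and homing signals differed gene by gene. Of 17 surface receptors 2 were higher in FA, Ly6c2 and Cd274, and 8 lower, with a median of -0.52 that becomes 0.29 on the scale of all UMIs. Ly6c2 stood at 1616 CPM in FA and 484 in control (ratio 3.34), and Cd274, the checkpoint ligand PD-L1, at 221 and 107 (2.07). Cd81, a tetraspanin of the B cell coreceptor, stood at 178 CPM in FA and 599 in control (0.298), and was lower in B and T cells too, with ratios of 0.314 and 0.267. Tnfrsf13b, which encodes the second APRIL receptor TACI, stood at 350 and 492 CPM (0.712). Of 11 migration genes 6 were higher and 1 lower, beside 18.3% and 22.4% of all genes. Their median was 0.79, although several rested on few UMIs. The one lower was Ccr10, the receptor that draws IgA plasma cells to mucosal epithelia. It stood at 235 CPM in FA and 562 in control (199 and 216 UMIs, ratio 0.418, 0.343 to 0.509), with UMIs in 63 of 113 FA and 41 of 56 control cells and in 13 of 1850 FA and 7 of 557 control T cells. On the higher side were Itgb1, the integrin beta 1 chain, at 165 CPM in FA and 62.5 in control (2.64), Klf2, a factor of lymphocyte trafficking, at 2023 and 1166 (1.73), and Gpr183, an oxysterol receptor, at 87.3 and 39.1 (2.24). Cxcr3, the receptor for interferon-induced chemokines, had 31 UMIs in FA and 4 in control, and Cxcr4, the bone marrow homing receptor, 22 and 3. The integrin chains Itga4 and Itgb7, which pair for gut homing, lay near even at 1.10 and 0.877.

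Interferon-response transcripts were higher in FA plasma cells. Of 12 measured genes 7 were higher and 0 lower, beside 18.3% and 22.4% of all genes, with a median of 0.75. B cells had 15 of 19 higher and T cells 15 of 20, with medians of 1.30 and 1.27, so the list was higher in all 3 classes. Isg15, a ubiquitin-like modifier, stood at 587 CPM in FA and 62.5 in control (497 and 24 UMIs, ratio 9.39, 6.24 to 14.8), in 48 and 11 cells. It was uneven, since 22.7% of the FA UMIs came from 1 cell and the median cell was at 0 in both libraries. Ifi27l2a was spread more broadly. It stood at 3754 CPM in FA and 802 in control (4.68, 4.16 to 5.28), in 96 of 113 and 38 of 56 cells, with per-cell medians of 1765 and 318 CPM. Xaf1 had a ratio of 3.99 from 44 and 5 UMIs, and Irf1, a factor of the interferon gamma response, 1.77. The Isg15 promoter, chr4:156200819-156201068 on the reverse strand of GRCm38.p6, upstream of the first exon, is shown with its matches to the core of the interferon-stimulated response element in capitals.
Isg15: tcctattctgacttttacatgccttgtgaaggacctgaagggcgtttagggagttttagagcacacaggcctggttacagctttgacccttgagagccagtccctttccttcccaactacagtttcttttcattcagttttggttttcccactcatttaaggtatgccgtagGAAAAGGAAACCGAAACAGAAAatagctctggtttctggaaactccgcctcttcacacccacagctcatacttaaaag
It holds 3 matches that overlap. Among the listed interferon genes that have a RefSeq promoter, 7 of 14 held this run on either strand, against 1079 of 27025 genes (3.99%). Here too the counts of genes cover the 50 bases after the start. A match says nothing of binding in these cells. MHC class I genes had 3 of 13 members higher and 0 lower, a share higher near the 18.3% of all genes. H2-Q7 and H2-Q6, with ratios of 4.06 and 4.08, are near-identical in sequence, so their counts are uncertain, and H2-K1 had a ratio of 1.52.

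Among the 30 genes named for the highest and lowest ratios, several on the FA side belonged to activation or checkpoint pathways. Ctla4, the inhibitory receptor best known from T cells, stood at 375 CPM in FA and 54.7 in control (318 and 21 UMIs, ratio 6.86, 4.41 to 11.2). It had UMIs in 68 of 113 FA and 12 of 56 control plasma cells. Among T cells, 465 of 1850 in FA and 90 of 557 in control had a UMI of it. Plasma cells held more UMIs than T cells, so these shares are at unlike depth. Cells were also thinned to 1000 UMIs that are neither immunoglobulin, Jchain nor mitochondrial. A UMI of Ctla4 was then kept in 28.6% of FA plasma cells and 11.9% of FA T cells. In control the shares were close, 7.14% of plasma cells and 7.58% of T cells. The T cell receptor genes Trbc1 and Trbc2 were at 0 in FA plasma cells but had UMIs in control plasma cells. Of the 10 T cell markers, 4 had UMIs in FA plasma cells and 6 in control. The rule left out barcodes with Cd3 UMIs, so low T cell genes are partly set by it. Whether Ctla4 UMIs came from T cell RNA was not tested. Dusp4, a phosphatase that turns off MAP kinases, had 190 UMIs in 53 FA cells and 8 in 5 control cells (10.8), and Rgs1, a regulator of chemokine receptor signalling, 173 UMIs in 18 FA cells and 6 in 4 control cells (13.1). Gpr171 had a ratio of 10.9. Linker and core histones H1f5, H2ac8 and H1f4 and the mitotic genes Cenpf, Ube2c and Smc2 formed another part of this group. Ube2s, which works with the Ube2c enzyme in mitosis, went the other way, with 12 UMIs in 11 FA cells and 78 in 36 control cells (0.0697), and its ratio was low in B and T cells too, at 0.140 and 0.102. Without cycling cells the log2 ratio of H1f5 was 0.48, against 4.57 with them, while that of Ctla4 was 3.16, against 2.78 with them. Atf3, a stress-induced factor, had 228 UMIs in 14 FA cells, of which 1 cell held 36.8%, and 14 in control (7.38). Timm23 and Tmem254a were at 0 in control plasma cells and 205 and 97 UMIs in FA. Their ratios were also far above 1 outside plasma cells, for Timm23 23.3 in B cells and 43.1 in T cells, and for Tmem254a 31.4 and 232. The libraries carry different versions of gene names, and the part of this in these ratios was not tested. Mir6236 had 114 UMIs in FA and 0 in control.

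**Figure D5:**
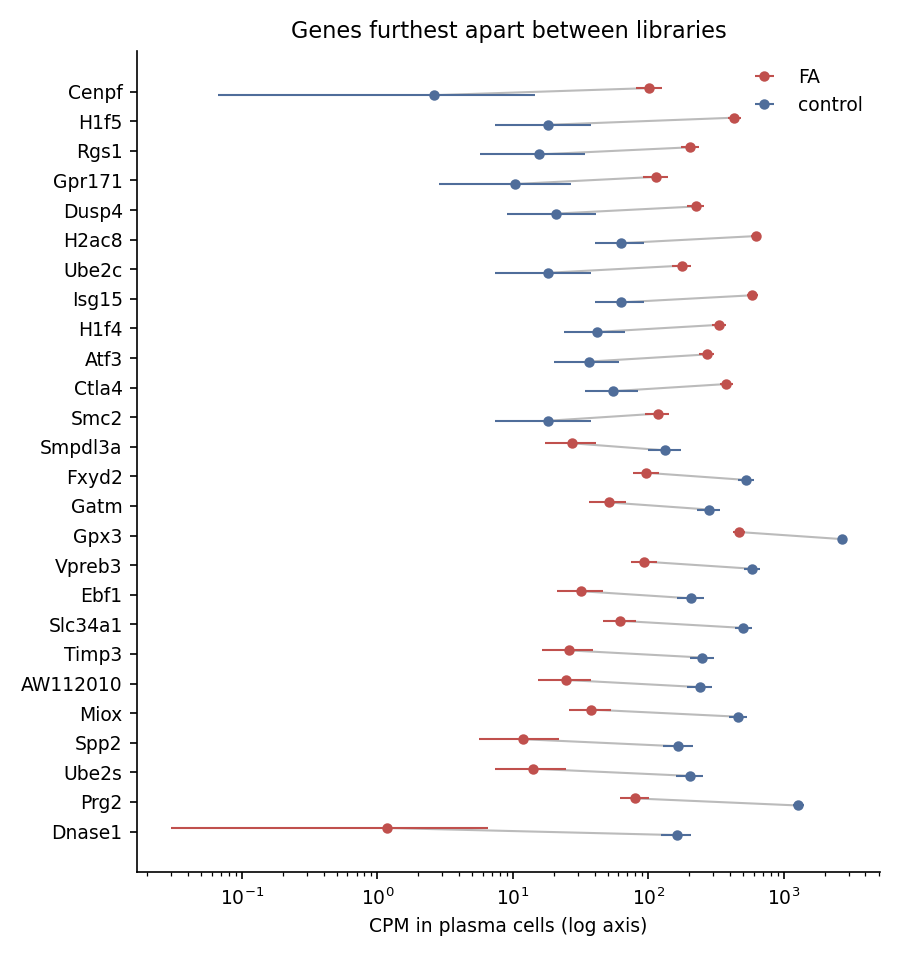
CPM in plasma cells of the genes with the highest and lowest FA over control ratios, FA and control side by side on a logarithmic axis, with exact 95% intervals of counting error; genes with no UMI in a library are left out. Isg15, Ctla4 and Dusp4 lie on the FA side and Prg2, Vpreb3 and Ebf1 on the control side.

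On the control side the clearest plasma cell gene was Prg2. It stood at 79.1 CPM in FA and 1278 in control (67 and 491 UMIs, ratio 0.0619, 0.0472 to 0.0800). It had UMIs in 27 of 113 FA and 45 of 56 control plasma cells, against 1 of 1850 FA and 3 of 557 control T cells. Thinned to 1000 UMIs per cell that are neither immunoglobulin, Jchain nor mitochondrial, 8.04% of FA and 55.4% of control cells kept a UMI. AW112010, a transcript of interferon-stimulated lymphocytes, went against the interferon list, with 21 UMIs in FA and 92 in control (0.103), of which 1 control cell held 38.0%. A further group on the control side were kidney tubule genes, Miox, Slc34a1, Gpx3, Gatm, Fxyd2 and Spp2. Miox had 32 UMIs in 8 FA cells and 176 in 6 control cells. These genes stood below the level in the rest of the library, and they move with the proximal tubule markers given above, whose part in the ratios was not tested. Dnase1, Plpp3 and Timp3, at 0.00731, at most 0.0267 and 0.104, were likewise below the level of the rest.

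Slpi, the secretory leukocyte protease inhibitor, was spread differently over the cells of each library. Its sum was higher in FA, 14887 CPM against 5212 in control (12615 and 2002 UMIs, ratio 2.86, 2.72 to 2.996), but the median cell had 303 CPM in FA and 3777 in control. It had UMIs in 72 of 113 FA and 46 of 56 control plasma cells, and in 1.95% of FA and 1.44% of control T cells, and 1 FA cell held 24.4% of the FA UMIs. The 13 IgG cells of FA stood at 73014 CPM and the 6 of control at 9927 CPM, while IgA cells stood at 6430 CPM in FA and 4725 in control. A single cycling FA cell held 3019 of the 4681 Slpi UMIs of IgA cells. Without the cell with the most Slpi UMIs in each library, a setting chosen after seeing the data, IgA cells stood at 2360 CPM in FA and 4419 in control, the other direction, and IgG cells at 48750 and 11549. The IgG cells held 7916 of the 12615 Slpi UMIs of FA plasma cells. Crip1, a LIM domain protein chosen after its values were seen, showed the reverse arrangement. It stood at 4640 CPM in FA and 1117 in control IgA cells, and at 1144 and 695 CPM in IgG cells.

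Il10, the anti-inflammatory cytokine, had 38 UMIs in 27 of 113 FA plasma cells and none in 56 control plasma cells. It was listed at 0 throughout the control library, so neither a ratio nor a limit on the control share is given. Among FA T cells 16 of 1850 had a UMI, and among FA B cells 4 of 332. Thinned to 1000 UMIs per cell of all kinds, 2 FA cells kept one, so depth limits this reading. Other cytokines were scarce. Il6, Csf2 and Nos2 had no UMI in plasma cells of either library, Tnf had 5 and 0, and the UMIs of Ccl3 and Ccl4 in FA lay in 2 cells.

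Genes of survival and death split without a common direction, with 4 of 11 higher in FA and 3 lower. Of all genes 18.3% were higher and 22.4% lower. Bcl2l11, which encodes the death inducer BIM, had 134 UMIs in FA and 13 in control (4.67), and Pmaip1, which encodes NOXA, had a ratio of 4.01. The survival genes Bcl2 and Bcl2l1 had ratios of 0.368 and 0.283, while Mcl1, on which plasma cells depend, had 1.39. The gasdermins, with which the series is concerned, were barely detected. Gsdmd had UMIs in 8 of 113 FA plasma cells and 4 of 56 control plasma cells, against 7.51% of FA and 9.52% of control T cells, and Gsdme had 3 UMIs in FA and 1 in control. At this depth no difference was detectable.

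Heat shock genes were among the higher members of the early response list. Of its 18 genes 6 were higher in FA and 1 lower, beside 18.3% and 22.4% of all genes. Hsp90aa1 stood at 1162 CPM in FA and 560 in control (2.08), and Hspa1b had a ratio of 2.64, while Jun and Egr1 were near even at 1.04 and 1.05. Metabolic lists were close to the median of all genes. Glycolysis had 2 of 13 higher and 2 lower, with hexokinase 2 (Hk2) at 6.12 and Pfkp at 3.23, and nuclear-encoded respiratory genes had 1 of 37 higher and 2 lower. In amino acid supply Slc3a2, the heavy chain of a large amino acid transporter, stood at 289 CPM in FA and 706 in control (0.410), and Psat1, of serine synthesis, had a ratio of 3.54. The 13 mitochondrially encoded genes were all lower by sums, with a median of -3.73, but this rested on a few cells. In control, 12 of 56 cells had over 5% mitochondrial UMIs and held 92.9% of these UMIs, and in FA 11 of 113 cells held 59.6%. The median cell had 0.467% mitochondrial UMIs in FA and 0.0747% in control, the other direction.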

How the data were processed

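The data are droplet single-cell libraries, 1 of FA and 1 of control mouse kidney. The deposited matrix holds UMI counts, 21855 genes by 28678 barcodes, all of them whole numbers of 0 or more. Seurat and mm10 are named by the submitters' processing notes, and the sources used here give neither aligner nor counting tool. Libraries were told apart by the start of the barcode names, FA3 for FA and C3 for control, the second of which rests on a letter. The libraries carry different gene name versions, and 228 pairs of names were joined through RefSeq synonyms (GRCm38.p6). The members and gene lists were chosen with earlier results of these data known.

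Library totals were 84138607 UMIs in FA and 63646459 in control. UMIs were summed over the plasma cells of a library and scaled to CPM of UMIs that are neither immunoglobulin, Jchain nor mitochondrial. Sums have exact Poisson, shares exact Clopper-Pearson and ratios exact conditional binomial intervals, all at 95%. These cover counting error only. A 0 within the class was set to 3 counts, no ratio was given where both libraries had 3 or fewer UMIs, and a gene at 0 throughout a library had none. B cells had 3 or more UMIs of Cd79a and Cd79b and met a further marker limit that is not reported here, without Cd3 UMIs; T cells had 3 or more Cd3 UMIs without Cd79 UMIs. No doublet caller was run; an alternative leaves out possible doublets.

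Named genes were the 15 highest and 15 lowest ratios at 100 CPM and 50 UMIs or more in the higher library, in 10% or more of its plasma cells and at 10% or more of the level in the rest of that library, without immunoglobulin, mitochondrial, ribosomal, haemoglobin, sex-linked or numbered predicted genes. Added were the 15 genes highest over the rest, the identity and constant chain lists, up to 6 members per other list, and Gsdmd and Gsdme. Ratios and intervals were run on simulated independent Poisson counts. That check covers counting error and not the uneven spread of UMIs over cells. Promoters, the 250 bases before a gene's start and the 50 after it, were searched on both strands for the 2 named elements. The printed sequences are the 250 bases before the start. Python 3.11.15, numpy 2.4.6, scipy 1.17.1 and pandas 2.3.3 were used.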

Additional observations from a re-analysis of the deposited data

How the results depend on the processing

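Each library is 1 sample, so precision is set by the number of plasma cells and their UMIs, and no spread between animals can be given. No paired analysis was possible because each group has 1 library. Weighing cells the same, another limit on mitochondrial share or on Xbp1 and Mzb1, and class limits of 50% or 95% kept the main values except as given here. Possible doublets were planned to be left out; dropping cycling cells or the Cd3 limit, per-cell medians and thinning were chosen after seeing the data.

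Without possible doublets, 67 FA and 16 control plasma cells were left. Their shares of kept barcodes were 0.422% and 0.256%, the IgA share of control cells was 75% against 89.3%, and cycling control cells were 0.0%. Genes lower numbered 691 against 1446. List medians were 0.31 for folding, -1.55 for the B cell program, -1.35 for MHC class II, -1.34 for light chain constant genes and -4.28 for mitochondrially encoded genes. On the scale of all UMIs, 3907 genes were higher and 329 lower, and the medians were 0.12 for the B cell program, 0.46 for plasma cell identity, 0.79 for entry into the reticulum, 1.29 for folding, 1.60 for migration, 2.56 for cell cycle, 1.41 for MHC class II, -0.35 for light chain constant genes (main value -1.15) and -2.93 for mitochondrially encoded genes.

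With 50 UMIs as the minimum, 599 genes were higher and 538 lower, with medians of 0.14 for migration and -3.97 for mitochondrially encoded genes; with a minimum of 1 UMI, 2042 were higher and 3198 lower, with 0.50 for migration. Weighing each cell the same gave 1.02 for migration, -0.28 for MHC class II and -3.57 for mitochondrially encoded genes. At most 25% mitochondrial UMIs gave 1.12 for MHC class II and -3.11 for mitochondrially encoded genes. At 10 or more UMIs of Xbp1 and Mzb1, light chain constant genes stood at -1.29 and mitochondrially encoded genes at -3.62. Without cycling cells the medians were 0.66 for cell cycle, -0.78 for light chain constant genes and -3.87 for mitochondrially encoded genes, and Ube2c turned to -0.28 from 4 and 0 UMIs. Without the Cd3 limit they were 0.30 for folding, 0.35 for migration and -3.25 for mitochondrially encoded genes. Per-cell medians turned Slpi to -3.64 and the mitochondrially encoded list to 1.09, from 1 gene. Without the cell with the most Slpi UMIs in each library, also chosen after seeing the data, the log2 ratio of Slpi was -0.90 in IgA cells, against 0.44 with it, 2.08 in IgG cells and 1.202 in all plasma cells. The cause of these changes was not tested.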
